A study of Mus musculus with 12 samples.

Results

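The Hox genes of the 4 mammalian clusters, Hoxa, Hoxb, Hoxc and Hoxd, were followed through sorted mouse prostate epithelium. A gene was included when the array annotation gave it a probe set of its own, with 1 symbol made of a cluster letter and a number from 1 to 13, and the brightest such probe set stood for it. This gave 36 genes of the 22180 genes with a single symbol: 9 Hoxa, 10 Hoxb, 9 Hoxc and 8 Hoxd genes. Hoxa11 and Hoxd4 had only probe sets shared with other symbols and were not analysed here. All 36 passed the filter on low signals, which asked for at least 2 arrays above the lower quartile of the table (2.98), Hoxc5 only through 2 Sca1-high libraries.

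Total RNA was measured on 12 arrays. The cells came from wild-type, hormone-naïve male mice. They were sorted as negative for the lineage markers CD45, CD31 and Ter119, which mark immune, endothelial and erythroid cells. Luminal cells were low for Sca1 and for CD49f, Sca1-high cells were CD49f-positive with high Sca1, and basal cells were CD49f-positive with intermediate Sca1. Each of these 3 gates was split by the surface protein LY6D into LY6D+ and LY6D- cells, giving 6 groups of 2 libraries. Luminal cells came from mice 4 and 5, Sca1-high cells from mice 1 and 5, and basal cells from mice 3 and 5. Mouse 5 therefore stood in every group, and every mouse gave both LY6D+ and LY6D- libraries of a gate. The fits treat libraries of the same mouse as independent although they are not, and the p-values do not measure the spread between mice.

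Hox genes encode homeodomain transcription factors whose order along a cluster follows the order in which they are used along the head-to-tail axis of the embryo. Genes of low number (anterior) act towards the head and those of high number (posterior) towards the tail, limbs and urogenital tract. In mice, posterior genes such as Hoxa10, Hoxa13, Hoxb13 and Hoxd13 take part in forming the prostate lobes, and Hoxb13 is needed for normal secretory luminal cells of the ventral lobe. Here the genes were divided into 10 anterior (1 to 4), 11 central (5 to 8) and 15 posterior (9 to 13) members.

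Values are deposited log2 signals, and a difference is a difference of log2 means ± moderated SE. For each gate the values follow 1 order: LY6D+ of the gate's first mouse (4, 1 or 3), LY6D+ of mouse 5, LY6D- of the first mouse, LY6D- of mouse 5. A signal depends on its probe set, so levels were compared between libraries and not between genes. The mean signal lay under 5 for 32 of 36 members (88.9%), against 75.2% of the 20135 genes tested, and with no detection call a dim signal was not told apart from background. In sorted bulk RNA, fewer cells of a type and less RNA per cell cannot be told apart.

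Several libraries stood apart from the rest. Of the mouse 5 libraries, basal LY6D+, basal LY6D- and luminal LY6D- had array medians of 3.76 to 3.79, against 3.90 to 3.99 for the other 9. These libraries were also highest on the first principal component, at 71.5, 73.1 and 32.9, where basal LY6D+ of mouse 3 was next at 18.5. Luminal LY6D- of mouse 5 was highest on the second component, at 69.8, where luminal LY6D+ of mouse 5 was next at 36.1. Sca1-high LY6D+ of mouse 5 had the lowest median correlation with the other arrays, 0.807. Luminal LY6D- of mouse 5 held the lowest value of 13 of the 36 Hox genes and basal LY6D- of mouse 5 that of 11, where 20.9% and 15.2% of all tested genes had their lowest value. Basal epithelial markers averaged 6.98 to 8.20 in basal libraries and 5.11 to 6.66 in luminal ones, and luminal epithelial markers 9.30 to 9.97 in luminal and 7.63 to 9.06 in basal libraries, so the gates differed in the direction of their labels. Genes of other cells moved with the gates too, among them myeloid and endothelial genes, although the cells were sorted as negative for CD45 and CD31. The mean of 7 myeloid markers was 7.26 to 8.98 in luminal, 4.61 to 6.60 in Sca1-high and 4.14 to 5.28 in basal libraries, and that of 6 seminal vesicle genes 11.71 to 11.99, 8.09 to 10.62 and 6.83 to 11.04. The mean of 8 endothelial markers was 4.10 to 4.56 in luminal, 5.70 to 7.30 in Sca1-high and 4.30 to 6.79 in basal libraries. That of 4 urothelial markers was 5.89 to 6.66, 4.61 to 5.09 and 4.94 to 5.44, and smooth muscle markers overlapped between all gates. Gate comparisons of Hox genes below stand beside these shifts, and their part in the results was not tested.

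Hox signals changed little across the 12 libraries, apart from a pair of group 13 genes. The span from the lowest to the highest library had a median of 1.08 over the 36 genes and 1.19 over all genes tested. It exceeded 2 for 2 of the 36 (5.56%), Hoxd13 at 3.97 and Hoxb13 at 2.22, against 21.9% of all genes. More of the Hox genes were dim (mean under 5 for 88.9%, against 75.2%), and the genes compared were not matched for signal. The part of dim signals in the narrow spans was not tested. In a moderated F test over the 6 groups, 0 of 36 passed an adjusted p of 0.05, a threshold that 0.0348% of all genes passed. Hoxb13 (adjusted p = 0.564) and Hoxd13 (adjusted p = 0.851) were the 2 of 36 with an unadjusted p under 0.05, where 5.66% of all genes had one.

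**Figure D1:**
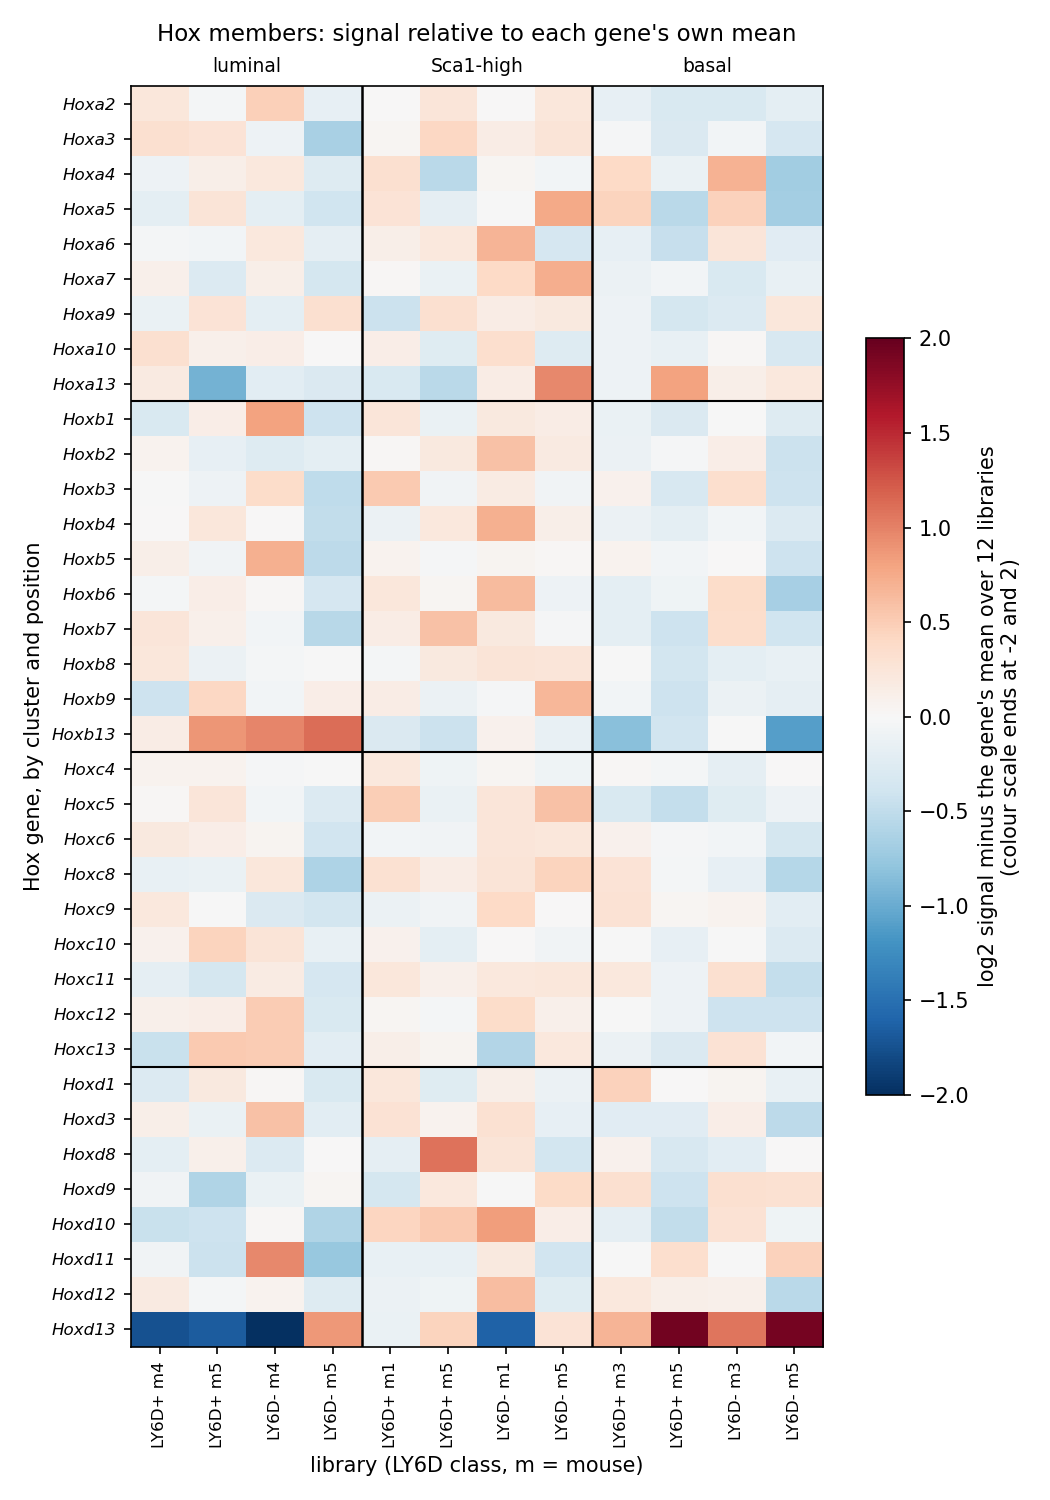
Signal of each of the 36 Hox genes (rows, by cluster and position) in each of the 12 libraries (columns, by gate), as log2 signal minus that gene's own mean, with the colour scale ending at -2 and 2. The rows of Hoxb13 and Hoxd13 carry the strongest colours, with high Hoxb13 in luminal libraries and high Hoxd13 in basal libraries and in luminal LY6D- of mouse 5.

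Hoxb13 was the member with the clearest split between luminal cells and the rest. Its signals were 4.35, 5.08, 5.18 and 5.31 in the luminal libraries, 3.91, 3.76, 4.28 and 4.04 in the Sca1-high libraries and 3.36, 3.81, 4.19 and 3.09 in the basal libraries. All 4 luminal libraries lay above all 8 others, although luminal LY6D+ of mouse 4 exceeded the highest Sca1-high library by little. Gate means ± SD were 4.98 ± 0.43, 4.00 ± 0.22 and 3.61 ± 0.49 (n = 4 libraries of 2 mice each). The basal minus luminal difference was -1.37 ± 0.28 (95% interval -1.99 to -0.74), and it missed the threshold (adjusted p = 0.0870, limma). Without basal LY6D- of mouse 3, the basal library with the highest Hoxb13, the difference was -1.64 and passed (adjusted p = 0.0309), and it passed under none of the other 23 settings tried. These settings hold the run without Sca1-high LY6D+ of mouse 5 in duplicate. Between Sca1-high and luminal cells the Hoxb13 difference was -0.98 ± 0.28 (interval -1.61 to -0.36, adjusted p = 0.353). Sca1-high and basal Hoxb13 did not differ beyond their spread, at 0.38 ± 0.28 (interval -0.24 to 1.01, adjusted p = 0.628), and their libraries overlapped.

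Hoxd13, a group 13 gene of the Hoxd cluster known for shaping digits and the genital tubercle, ran the other way and was the most variable Hox gene. It measured 4.25, 4.33, 3.97 and 6.86 in luminal, 5.86, 6.44, 4.38 and 6.27 in Sca1-high and 6.68, 7.93, 7.07 and 7.92 in basal libraries. Every basal library lay above every Sca1-high library. Luminal cells were the lowest in 3 of 4 libraries, but luminal LY6D- of mouse 5 exceeded the lowest basal library. Gate means ± SD were 4.85 ± 1.35, 5.74 ± 0.94 and 7.40 ± 0.63 (n = 4 libraries of 2 mice each). The basal minus luminal difference was 2.55 ± 0.64 (interval 1.10 to 4.00, adjusted p = 0.186), and 3.27 without luminal LY6D- of mouse 5 (adjusted p = 0.0616). The Sca1-high minus basal difference was -1.66 ± 0.64 (interval -3.11 to -0.21, adjusted p = 0.471) and the Sca1-high minus luminal difference 0.89 ± 0.64 (interval -0.56 to 2.34, adjusted p = 0.737). The last of these was 1.61 without luminal LY6D- of mouse 5 and 0.16 without luminal LY6D- of mouse 4.

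Within a library, the Hoxd13 signal minus the Hoxb13 signal cancels any shift common to the whole array. This quantity was chosen after its values were seen and was not tested. It was -0.10, -0.75, -1.21 and 1.55 in luminal, 1.96, 2.68, 0.10 and 2.23 in Sca1-high and 3.32, 4.12, 2.88 and 4.83 in basal libraries. All 4 basal libraries lay above the other 8, while luminal and Sca1-high libraries overlapped through luminal LY6D- of mouse 5 and Sca1-high LY6D- of mouse 1. Its zero depends on the probe sets and has no meaning of its own, so only the shift between libraries can be read.

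For the 2 other genes of group 13, the gates overlapped. Hoxa13, which acts with Hoxd13 in the limb and urogenital sinus, was 4.75, 3.63, 4.37 and 4.28 in luminal, 4.26, 4.04, 4.72 and 5.53 in Sca1-high and 4.47, 5.37, 4.69 and 4.79 in basal libraries. Its gate means were 4.26, 4.64 and 4.83, and the basal minus luminal difference was 0.58 ± 0.31 (interval -0.13 to 1.28, adjusted p = 0.659). Hoxc13, known for its control of hair keratin genes, was 3.36, 4.32, 4.31 and 3.59 in luminal, 3.91, 3.86, 3.22 and 4.01 in Sca1-high and 3.69, 3.52, 4.09 and 3.75 in basal libraries. Its libraries were interleaved, with differences of -0.13 ± 0.29 for basal and -0.14 ± 0.29 for Sca1-high cells against luminal cells (adjusted p = 0.973 and 0.914).

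**Figure D2:**
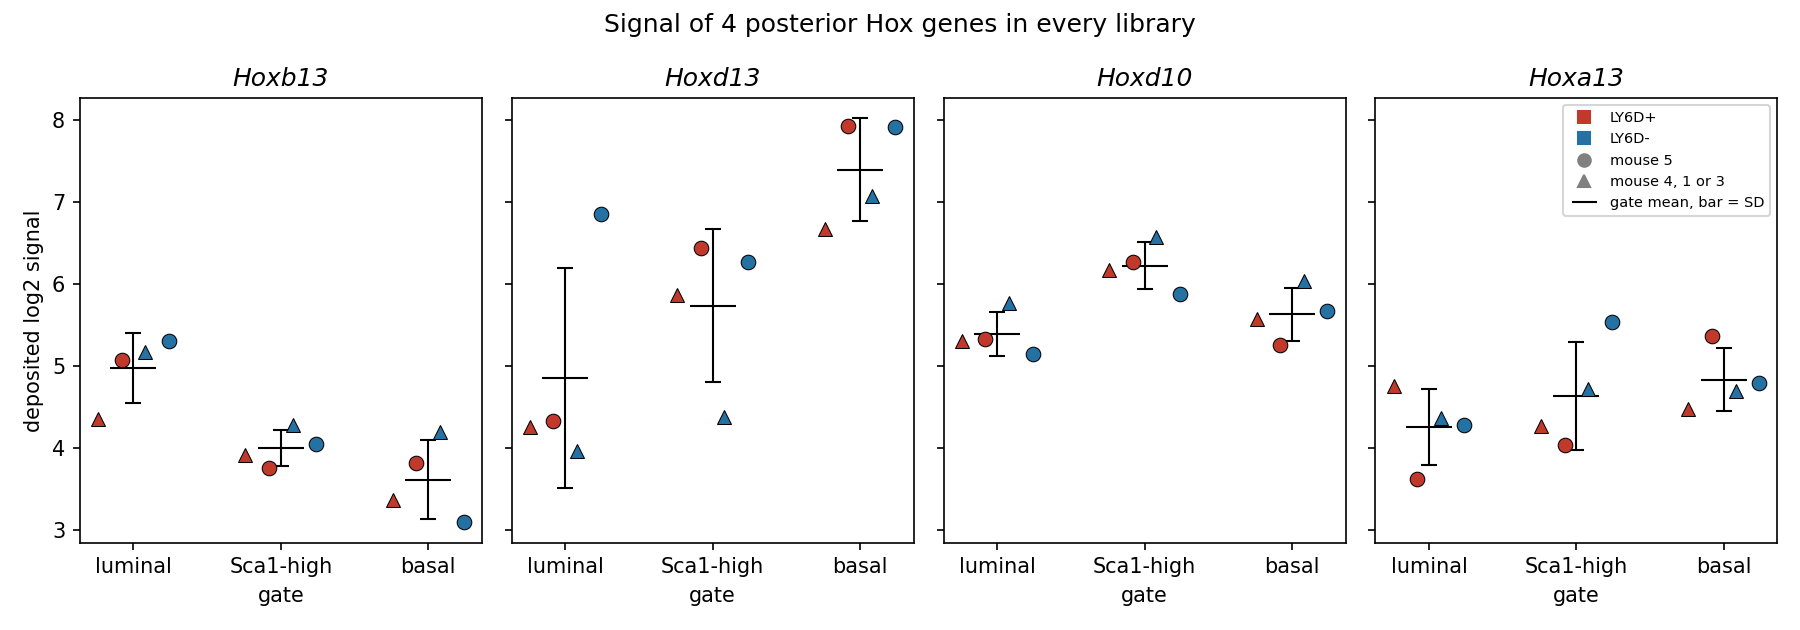
Deposited log2 signal (y axis) of Hoxb13, Hoxd13, Hoxd10 and Hoxa13 in each library, by gate, with red for LY6D+ and blue for LY6D-, circles for mouse 5 and triangles for the gate's other mouse. Horizontal lines are gate means and bars SD over 4 libraries: Hoxb13 means run 4.98, 4.00 and 3.61 from luminal through Sca1-high to basal, Hoxd13 means run 4.85, 5.74 and 7.40.

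Hoxd10, a posterior gene known for patterning hindlimb motor neurons, had its highest gate mean in Sca1-high cells. Its values were 5.30, 5.33, 5.78 and 5.15 in luminal, 6.17, 6.27, 6.58 and 5.89 in Sca1-high and 5.57, 5.25, 6.03 and 5.67 in basal libraries. All 4 Sca1-high libraries exceeded all luminal ones, and basal LY6D- of mouse 3 reached into the Sca1-high range. The Sca1-high minus luminal difference was 0.84 ± 0.23 (interval 0.32 to 1.35, adjusted p = 0.340), and the Sca1-high minus basal difference 0.60 ± 0.23 (interval 0.080 to 1.11, adjusted p = 0.470). Neither passed the threshold. The mean of the 8 endothelial markers was also higher in every Sca1-high than in every luminal library, and that of 7 fibroblast markers was 5.63 to 6.01 in Sca1-high and 5.13 to 5.62 in luminal libraries. Their part in the Hoxd10 difference was not tested.

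The start regions of Hoxd13 and Hoxd10 are shown because these 2 genes of the Hoxd cluster, on chromosome 2, had the largest positive Hox differences from luminal cells. Each window holds 300 bases around the RefSeq gene start on GRCm38.p6 (plus strand), at chr2:74667975-74668274 for Hoxd13 and chr2:74691641-74691940 for Hoxd10. Capitals mark a TATA box (TATAAA) in Hoxd13 and, in Hoxd10, TGACCT, which is the nuclear receptor half-site AGGTCA read on the other strand.
Hoxd13: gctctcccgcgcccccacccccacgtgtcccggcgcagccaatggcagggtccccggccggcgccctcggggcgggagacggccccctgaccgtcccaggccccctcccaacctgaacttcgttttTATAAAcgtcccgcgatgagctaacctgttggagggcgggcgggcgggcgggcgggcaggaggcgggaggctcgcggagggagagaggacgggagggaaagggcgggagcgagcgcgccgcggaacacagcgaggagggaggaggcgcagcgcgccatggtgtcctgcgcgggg
Hoxd10: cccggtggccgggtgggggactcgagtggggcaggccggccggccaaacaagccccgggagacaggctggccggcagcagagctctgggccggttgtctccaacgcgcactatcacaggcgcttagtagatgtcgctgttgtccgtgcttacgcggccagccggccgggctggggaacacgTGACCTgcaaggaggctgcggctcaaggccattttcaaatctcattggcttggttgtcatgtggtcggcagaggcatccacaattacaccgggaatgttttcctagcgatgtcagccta

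RefSeq windows matched 20 of the 36 genes, with 22 windows, and Hoxb13 was not among them. Hox windows were rich in CpG dinucleotides, the sites of DNA methylation, with a median of 17 per window against 7 over all 32851 windows. Hoxd13 had 37, more than 94.4% of all windows, and Hoxd10 had 22. TATAAA, searched on the gene's strand, stood in the Hoxd13 window alone among the 22 Hox windows and in 8.32% of all windows. AGGTCA, on either strand, stood in 6 of the 22 (27.3%), those of Hoxa5, Hoxb4, Hoxc4, Hoxd3, Hoxd8 and Hoxd10, and in 16.3% of all. The PBX-HOX composite TGATNNAT stood in 4 of 22 (18.2%, against 8.85% of all) and the androgen receptor half-site AGAACA in 1 (4.55%, against 19.0%), both searched on either strand. Of the posterior HOX motifs, also searched on either strand, CAATAAA stood in the Hoxb8 window (4.55% of Hox windows, against 4.60% of all). The longer form CTCGTAAA stood in the windows of Hoxb8 and Hoxd11 (9.09%, against 0.131%). The TATA box and both posterior HOX motifs end in TAAA but differ in the letters before it, so they cannot match at the same place. A match describes letters in these windows and no binding was measured.

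Basal cells were compared with luminal cells over the whole family, and no Hox gene passed the test. Of 36 genes, 0 were called higher or lower, where 0.417% of all tested genes were called (limma, adjusted p under 0.05). At an unadjusted p under 0.05 there were 2, Hoxb13 and Hoxd13, a share of 5.56% against 9.44% of all genes. Differences were positive for 12 of 36 (33.3%) with a median of -0.089, against 45.8% of all genes with a median of -0.027. Leaving out 1 library moved the Hox median between -0.19 without basal LY6D- of mouse 3 (all genes -0.069) and 0.026 without luminal LY6D- of mouse 4 (all genes 0.047). The 95% interval lay within -1 and 1 for 32 of the 36 (88.9%), against 68.9% of all genes, so that for those 32 a log2 difference of 1 lay outside the interval.

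By position, 9 of 11 central genes and 7 of 10 anterior genes had negative basal minus luminal values. Both classes kept between -0.37 and 0.18, and the posterior genes ran from -1.37 to 2.55. These ends were Hoxb13 and Hoxd13, and the other posterior genes lay between -0.34 (Hoxc12) and 0.58 (Hoxa13). Hoxa2, which patterns the second pharyngeal arch, was 3.67, 3.40, 3.92 and 3.28 in luminal and 3.27, 3.14, 3.13 and 3.25 in basal libraries. All luminal values exceeded all basal values, the nearest being 3.28 and 3.27, and the difference was -0.37 ± 0.20 (adjusted p = 0.649). Hoxa2 and Hoxb13 were the 2 Hox genes whose basal libraries all lay below the luminal ones, a pattern shown by 3.17% of all genes, and 0 lay above (2.58% of all genes). The count of genes without overlap was 12 in place of 2 when the 3 libraries of mouse 5 that stood apart were left out, which leaves 3 luminal and 2 basal libraries, and the share of all genes without overlap was then 22.7% in place of 5.75%. Hoxc12 followed among the negative values at -0.34 ± 0.20 (adjusted p = 0.715), with 4.41, 4.44, 4.81 and 4.00 in luminal and 4.29, 4.21, 3.90 and 3.89 in basal libraries. Hoxd9, which acts in hindlimb patterning with its neighbours, followed Hoxd13 and Hoxa13 among the positive values at 0.33 ± 0.24 (adjusted p = 0.805). It was 2.92, 2.39, 2.86 and 3.05 in luminal and 3.33, 2.59, 3.32 and 3.31 in basal libraries. Both genes overlapped between the gates, and mouse 5 gave the lowest values of either gate for Hoxd9 in its LY6D+ libraries.

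**Figure D3:**
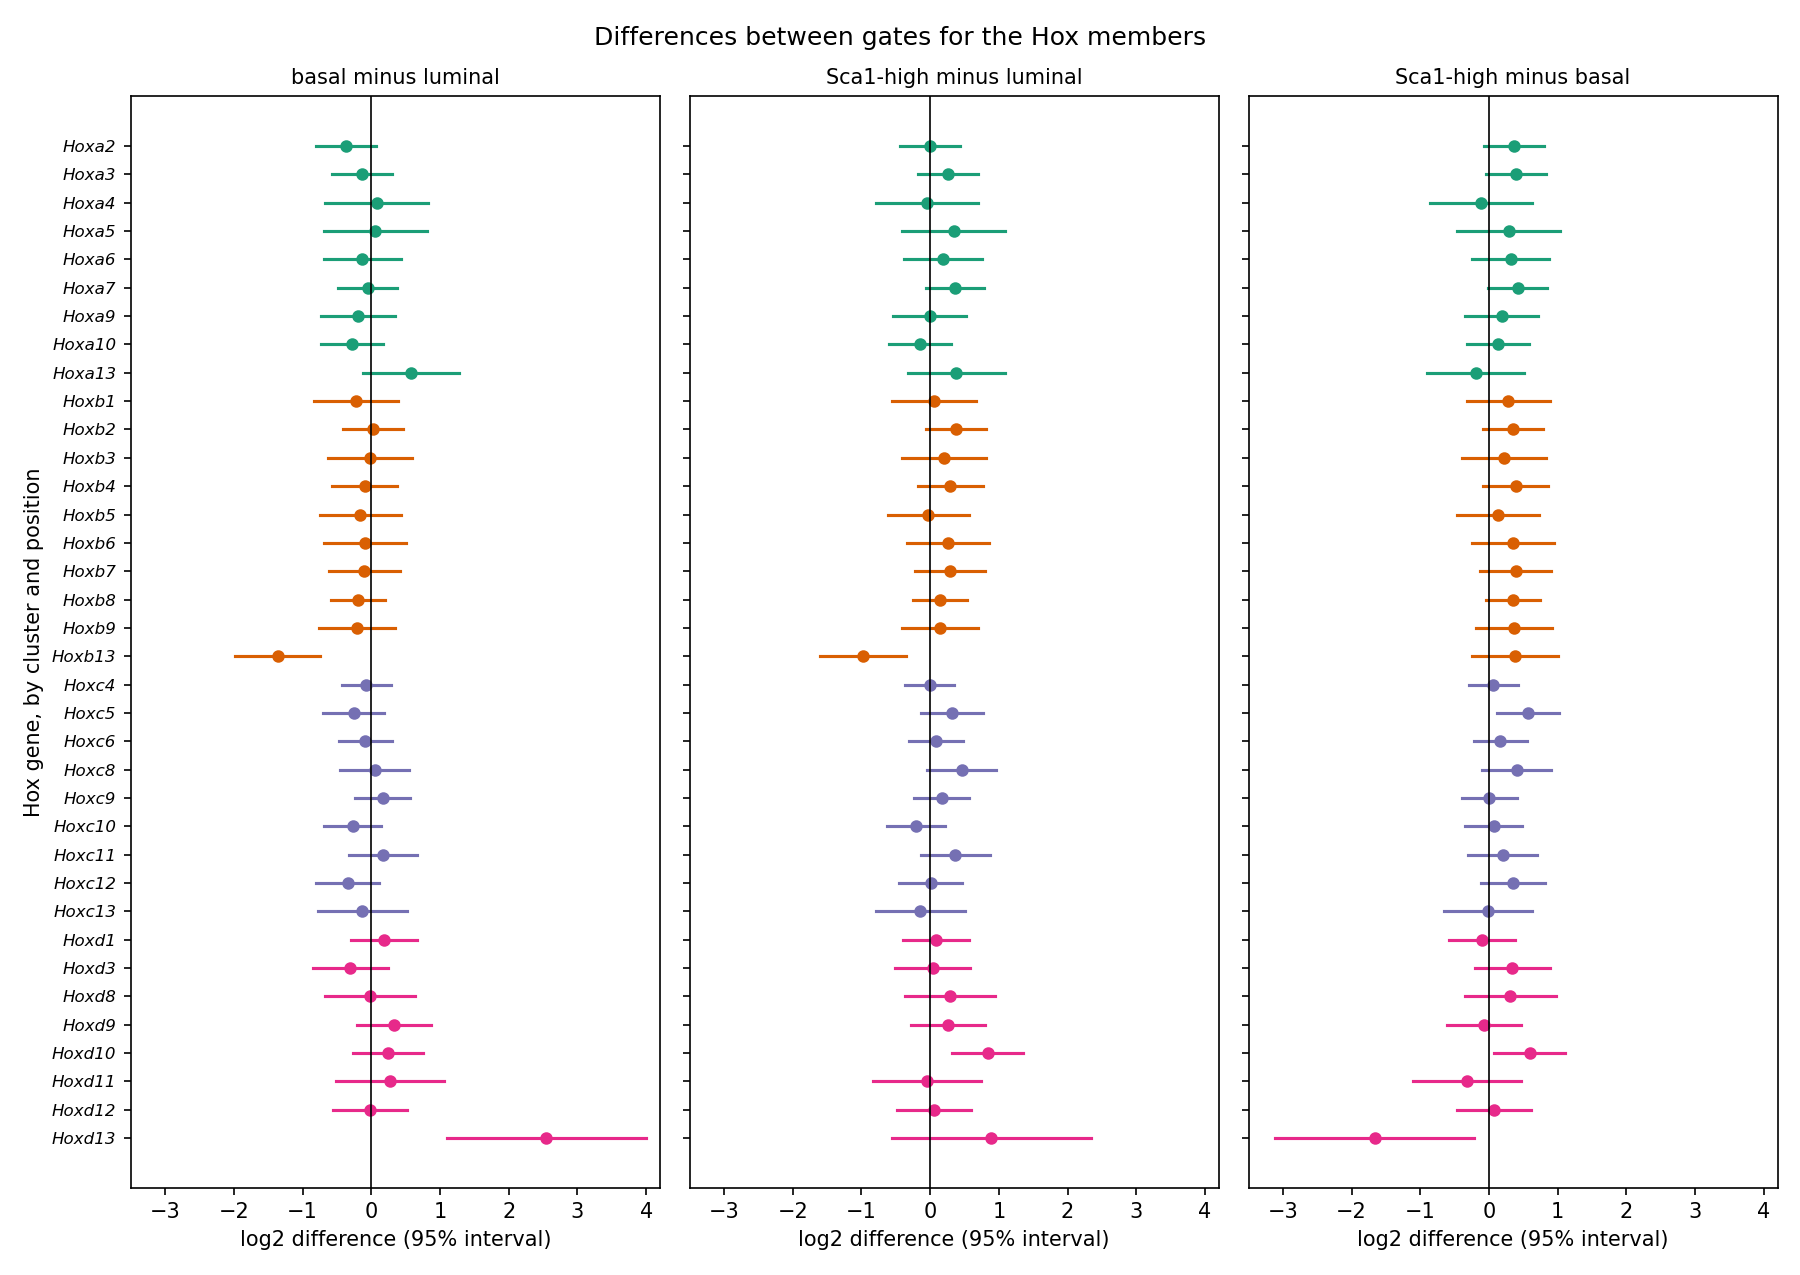
Difference of log2 means (points) with its 95% moderated interval (lines) for each of the 36 Hox genes, by cluster and position, in the 3 comparisons of gates. Most points lie near 0, and the intervals of Hoxb13 and Hoxd13 (basal minus luminal), Hoxb13 and Hoxd10 (Sca1-high minus luminal) and Hoxd10 and Hoxd13 (Sca1-high minus basal) leave out 0 before adjustment. So does that of Hoxc5 (Sca1-high minus basal), which passed the filter on low signals through 2 Sca1-high libraries and is a description.

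Sca1-high cells were next compared with luminal cells, which share their libraries with the comparison above. Again 0 of 36 Hox genes were called, against 0.139% of all genes, and 2 had an unadjusted p under 0.05, Hoxd10 and Hoxb13 (5.56%, against 8.41%). Differences were positive for 26 of 36 (72.2%), with a median of 0.16, while 59.8% of all genes were positive with a median of 0.075. The Hox median was 0.075 without Sca1-high LY6D- of mouse 1 (all genes 0.049) and 0.22 without luminal LY6D- of mouse 4 (all genes 0.15), the extremes over single libraries left out. The interval lay within -1 and 1 for 31 of 36 (86.1%, against 68.2% of all genes). The 26 positive genes, the median of 0.16 and these 31 intervals include Hoxc5 (0.31). It passed the filter on low signals only through Sca1-high libraries, which favoured its sign, so it does not count as support. Hoxd10 was the 1 gene whose Sca1-high libraries all lay above the luminal ones (3.57% of all genes) and Hoxb13 the 1 gene with all below (2.48%).

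Hoxc8, which shapes forelimb motor neuron pools, was 3.41, 3.42, 3.78 and 2.94 in luminal, 3.86, 3.71, 3.81 and 4.01 in Sca1-high and 3.84, 3.53, 3.40 and 3.00 in basal libraries. Its Sca1-high minus luminal difference was 0.46 ± 0.22 (adjusted p = 0.633), and the lowest values of luminal and basal cells were both LY6D- of mouse 5. Hoxc10, known from lumbar motor neurons, was 4.38, 4.73, 4.55 and 4.15 in luminal and 4.38, 4.09, 4.30 and 4.22 in Sca1-high libraries. Hoxa10, which takes part in forming the male accessory glands and the uterus, was 4.01, 3.79, 3.83 and 3.70 in luminal and 3.82, 3.44, 4.03 and 3.44 in Sca1-high libraries. These were the most negative values after Hoxb13, at -0.20 ± 0.19 for Hoxc10 and -0.15 ± 0.20 for Hoxa10 (adjusted p = 0.786 and 0.865), and both overlapped.

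Between Sca1-high and basal cells the family leaned to one side, without any gene that passed. Of 36 genes, 0 were called, where 0.00993% of all genes were, and 3 had an unadjusted p under 0.05, Hoxc5, Hoxd10 and Hoxd13 (8.33%, against 9.83%). Of these, Hoxc5 had passed the filter on low signals only through Sca1-high libraries, so it does not count as support. Differences were positive, that is higher in Sca1-high cells, for 29 of 36 (80.6%) with a median of 0.28, against 64.2% of all genes with a median of 0.11. All 10 Hoxb genes (0.13 to 0.39) and all 11 central genes (0.13 to 0.57) were positive, and so were 4 of 8 Hoxd genes. The 29 positive genes, the median of 0.28 and the 11 central genes include Hoxc5, whose sign the filter favoured. Hoxc5 gives the 0.57, and the largest other central value was 0.42 (Hoxa7). With arrays centred on their medians the Hox median became 0.16 and that of all genes -0.017. Without the 3 libraries of mouse 5 that stood apart, 2 of them basal, the Hox median was 0.12 and that of all genes 0.045. Intervals lay within -1 and 1 for 30 of 36 (83.3%, against 67.0% of all genes).

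Hoxc5 and Hoxa7, both central genes, followed Hoxd10 among the positive values. Hoxc5 was 2.58, 2.80, 2.50 and 2.29 in luminal, 3.05, 2.42, 2.80 and 3.15 in Sca1-high and 2.26, 2.08, 2.32 and 2.46 in basal libraries. It exceeded the lower quartile in 2 of the 12 libraries, both Sca1-high (3.05 and 3.15), and passed the filter through them alone, so its difference of 0.57 is given as a description with no test. Hoxa7, a gene of thoracic vertebral patterning, was 4.20, 4.04, 4.58 and 4.90 in Sca1-high and 4.06, 4.12, 3.87 and 4.03 in basal libraries (0.42 ± 0.19, adjusted p = 0.513), and 4.28, 3.90, 4.29 and 3.82 in luminal libraries. The Sca1-high and basal ranges of both genes overlapped. Hoxa2 and Hoxa3 were the 2 genes whose Sca1-high libraries all exceeded the basal ones (4.77% of all genes), and Hoxd13 was the 1 with all below (2.26%). The Hoxa2 values in Sca1-high cells were 3.45, 3.68, 3.46 and 3.66. Hoxd11, which acts in kidney and forearm development with its Hoxa paralog, followed Hoxd13 on the negative side at -0.32 ± 0.35 (adjusted p = 0.746). It was 4.05, 3.69, 5.08 and 3.36 in luminal, 3.97, 3.98, 4.31 and 3.73 in Sca1-high and 4.11, 4.46, 4.11 and 4.58 in basal libraries, and luminal LY6D- cells alone held both its highest value (mouse 4) and its lowest (mouse 5).

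The split by LY6D compares LY6D+ with LY6D- cells of the same gate and mice, but the main tests did not use this pairing. Markers of other cells moved with this split too. The endothelial mean was 4.30 and 4.52 in basal LY6D+ libraries and 6.79 and 6.64 in basal LY6D- ones, and the basal epithelial mean was 6.58 and 6.66 in luminal LY6D+ and 5.11 and 5.64 in luminal LY6D- libraries. Their part in the LY6D comparisons was not tested. No Hox gene passed, with 0 of 36 called in luminal cells (0% of all genes called), 0 in Sca1-high cells (0%), 0 in basal cells (0.00993%) and 0 over the 3 gates together (0%). At an unadjusted p under 0.05 there were 1, Hoxa3, in luminal cells (3.56% of all genes), 1, Hoxa7, in Sca1-high cells (2.41%), 0 in basal cells (2.20%) and 0 over the gates (2.62%). Each comparison within a gate sets 2 libraries against 2, so a lack of overlap is frequent. In luminal cells 8 Hox genes had both LY6D+ libraries higher (15.4% of all genes) and 1 lower (12.5%). In Sca1-high cells 0 were higher (11.8%) and 7 lower (17.2%), and in basal cells 5 were higher (13.7%) and 3 lower (10.9%). Over the gates, 0 were separated in either direction (0.0546% and 0.0348% of all genes). None of the 36 moved the same way in all 6 mouse pairs, as 2.84% of all genes did. The median Hox difference over the gates was -0.0014, with 18 values on each side of 0 and a range of -0.31 to 0.24, and the interval lay within -1 and 1 for 35 of 36 (97.2%, against 82.6%).

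Single genes showed how the LY6D difference varied between gates and between mice. Hoxa3, needed for the thymus and parathyroids, was 4.08, 4.03, 3.67 and 3.11 in luminal, 3.81, 4.17, 3.92 and 4.03 in Sca1-high and 3.75, 3.48, 3.71 and 3.44 in basal libraries. Its LY6D+ minus LY6D- value was 0.41 and 0.92 in the luminal mice and between -0.10 and 0.14 in the other 4 pairs, and the luminal difference of 0.67 ± 0.28 had an adjusted p of 1.00. Hoxa13 was lower in LY6D+ than in LY6D- Sca1-high cells by -0.46 in mouse 1 and -1.49 in mouse 5, a difference of -0.98 ± 0.44 (adjusted p = 1.00), and it was higher by 0.58 in basal LY6D+ cells of mouse 5. In luminal cells the Hoxa13 value was 0.39 in mouse 4 and -0.66 in mouse 5, and in basal cells of mouse 3 it was -0.22. Hoxb13 was lower in LY6D+ cells in 5 of 6 pairs, with values of -0.83 and -0.23 in luminal, -0.37 and -0.28 in Sca1-high and -0.83 and 0.72 in basal cells. The mean over the gates was -0.30 ± 0.23 (interval -0.81 to 0.21, adjusted p = 1.00). Hoxd8, a central gene, was 5.16, 5.45, 5.07 and 5.36 in luminal, 5.17, 6.44, 5.60 and 4.99 in Sca1-high and 5.43, 5.03, 5.13 and 5.36 in basal libraries. Its LY6D difference over the gates, 0.19 ± 0.24, became -0.018 without Sca1-high LY6D+ of mouse 5, the library with the highest Hoxd8. Tests of whether the LY6D difference itself differed between gates called 0 of 36 Hox genes in each of the 3 comparisons (0%, 0% and 0% of all genes called). At an unadjusted p under 0.05 they also gave 0, against 2.92%, 2.45% and 2.36% of all genes.

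The remaining 20 genes, among them all Hoxb genes but Hoxb13, are given by their range. Their basal minus luminal values ran from -0.31 (Hoxd3) to 0.18 (Hoxd1), Sca1-high minus luminal values from -0.045 (Hoxa4) to 0.38 (Hoxb2) and Sca1-high minus basal values from -0.12 (Hoxa4) to 0.39 (Hoxb7). Hoxc4 had the smallest span of all 36 genes, 0.38 between its lowest and highest library. A second probe set of Hoxb5 ran from 4.23 to 5.22, and its gates stood differently from those of the brightest one. Its Sca1-high libraries (4.83 to 5.22) all lay above its basal libraries. The lowest basal values were those of LY6D- cells, 4.26 in mouse 3 and 4.23 in mouse 5. With the brightest probe set, Sca1-high and basal libraries overlapped, and the difference was 0.13 ± 0.26 (adjusted p = 0.863, limma). Why these probe sets differed was not tested.

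The genes known to work with or on the Hox clusters were described beside them, from lists chosen with earlier results of these data known. TALE homeodomain cofactors bind DNA together with Hox proteins, Trithorax and MLL proteins keep Hox genes active, Polycomb proteins keep them silent, and retinoic acid switches anterior genes on. In the 3 comparisons of gates, 0 of 8 cofactors, 0 of 10 Trithorax and MLL genes, 0 of 18 Polycomb genes, 0 of 13 retinoid genes, 0 of 8 related homeobox genes and 0 of 5 noncoding genes of the clusters passed, where 0.417% (basal minus luminal), 0.139% (Sca1-high minus luminal) and 0.00993% (Sca1-high minus basal) of all genes did. Over the gates the LY6D split also called 0 in each list (0% of all genes).

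The retinoid list held the widest values. Crabp1, which binds retinoic acid in the cytoplasm, was 4.28, 4.29, 5.40 and 4.67 in luminal, 3.62, 3.21, 3.77 and 3.74 in Sca1-high and 3.56, 3.47, 3.50 and 3.44 in basal libraries. Luminal cells were higher in all 4 libraries, with differences of -1.17 ± 0.20 for basal (adjusted p = 0.0549) and -1.08 ± 0.20 for Sca1-high cells (adjusted p = 0.133). Of all genes, 3.17% had every basal library and 2.48% every Sca1-high library below the luminal ones. Aldh1a1, which makes retinoic acid from retinal, was 4.13, 5.58, 7.46 and 6.39 in luminal, 4.43, 4.90, 4.79 and 6.49 in Sca1-high and 8.24, 7.98, 7.67 and 8.15 in basal libraries. Basal cells were higher in all 4, by 2.12 ± 0.45 over luminal cells (adjusted p = 0.100), and the Sca1-high minus basal difference was -2.86 ± 0.45 (adjusted p = 0.164). Every basal library lay above the luminal ones for 2.58% of all genes and above the Sca1-high ones for 2.26%. The list's median was 0.049 between Sca1-high and luminal cells and 0.067 between Sca1-high and basal cells, near those of all genes.

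Polycomb genes split evenly, 9 positive and 9 negative between basal and luminal cells, with a median of -0.0056. Eed, a core subunit of Polycomb repressive complex 2, was 4.43, 4.14, 4.28 and 4.74 in luminal and 4.96, 5.78, 5.07 and 5.97 in basal libraries (1.04 ± 0.28, adjusted p = 0.224). Jarid2, an accessory subunit of the same complex, was 4.65, 5.14, 4.42 and 6.60 in luminal and 3.51, 3.77, 4.18 and 3.95 in basal libraries (-1.35 ± 0.40, adjusted p = 0.278). Basal libraries all lay above the luminal ones for Eed (2.58% of all genes) and all below for Jarid2 (3.17%). These 2 genes were named as the widest of the list, and separation was not counted over the list. Trithorax and MLL genes had negative Sca1-high minus basal values in 8 of 10, with a median of -0.34 against 0.11 for all genes. Among them were the histone demethylase Kdm6b at -1.59 ± 0.62 (adjusted p = 0.478), the MLL complex subunit Rbbp5 at -1.38 ± 0.60 and the methyltransferase Kmt2a at -1.20 ± 0.60 (adjusted p = 0.504 and 0.535). Kdm6b was 9.08 and 8.83 in the basal libraries of mouse 5 and 6.95 and 6.28 in those of mouse 3. Basal values of Rbbp5 were likewise 6.81 and 6.85 in mouse 5 and 5.05 and 4.37 in mouse 3, and those of Kmt2a 6.32 and 7.81 in mouse 5 and 5.86 and 5.43 in mouse 3, so all 3 were higher in mouse 5. Psip1, a chromatin tether of MLL, was -1.05 ± 0.35 in basal and -1.23 ± 0.35 in Sca1-high cells against luminal cells (adjusted p = 0.329 and 0.353). Cofactors ran from -0.48 (Pknox1, Sca1-high minus basal) to 0.72 ± 0.35 (Meis2, Sca1-high minus luminal, adjusted p = 0.627).

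**Figure D4:**
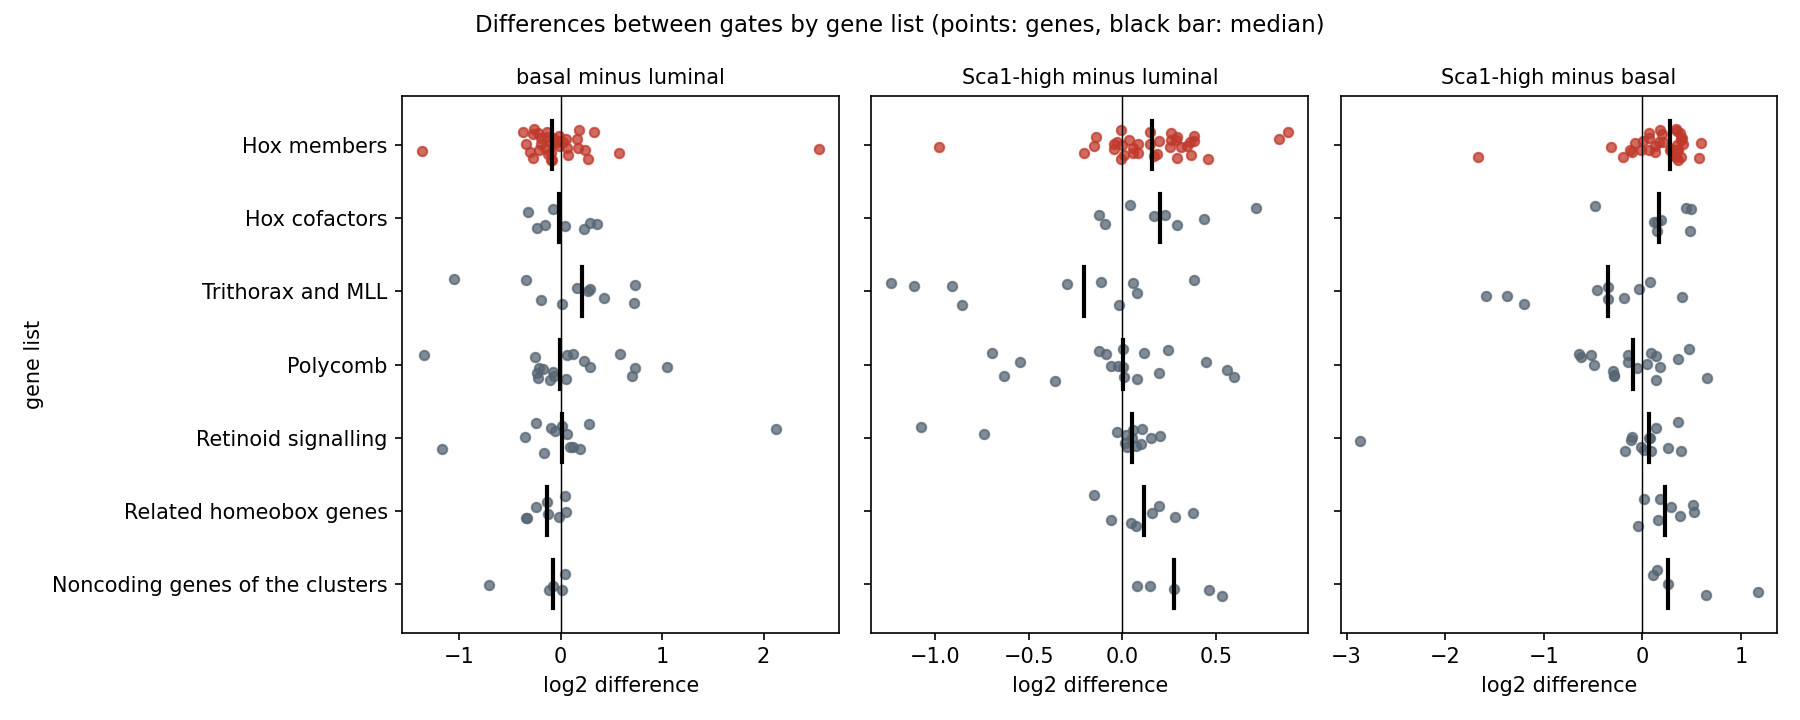
Difference of log2 means (x axis) for each gene (points) of the Hox family and of the 6 lists of related genes (y axis), with the list median as a black bar, in the 3 comparisons of gates. The Hox medians are -0.089, 0.16 and 0.28, and no point of any list passed an adjusted p of 0.05.

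The clusters also carry microRNA genes, and that of miR-196a is shown because its 2 copies had the widest values of the noncoding genes. The mature miR-196a-5p (RefSeq, GRCm38.p6, plus strand) is identical from Mir196a-1 in the Hoxb cluster at chr11:96265187-96265208 and Mir196a-2 in the Hoxc cluster at chr15:102973365-102973386. Capitals mark the seed, bases 2 to 8, which pairs with target messages such as that of Hoxb8.
miR-196a-5p: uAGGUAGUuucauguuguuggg
The Mir196a-2 probe set gave 4.44, 4.08, 5.71 and 3.63 in luminal, 4.15, 5.74, 5.09 and 4.73 in Sca1-high and 4.10, 3.25, 3.93 and 3.74 in basal libraries. Every Sca1-high library exceeded every basal one (4.77% of all genes), and the difference was 1.17 ± 0.48 (interval 0.084 to 2.26, adjusted p = 0.486). For Mir196a-1 it was 0.65 ± 0.32 (adjusted p = 0.535), with overlap. Whether these probe sets read the mature RNA or a longer transcript was not tested. The Sca1-high minus basal value of Hoxb8 was 0.35 ± 0.17 (interval -0.046 to 0.74, adjusted p = 0.536), with overlap, and a link to miR-196a was not tested.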

How the data were processed

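Each deposited value is a log2 signal of 1 probe set, and RMA and oligo are named, without versions, in the submitters' processing notes. Per the labels' protocols, RNA was purified with an RNeasy kit, then amplified and labelled with biotin by the NuGEN Ovation V2 kit before hybridization. The deposited log2 values ran from 0.695 to 14.32 and were used without further normalization. Scanner files were not used here, so this scale was not checked against them.

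Of 41345 probe sets, 23521 had 1 gene symbol in GEO's platform annotation, 1814 had several and 16010 were not listed. The brightest probe set stood for each of 22180 genes, and 20135 genes with at least 2 arrays above the lower quartile (2.98) were tested.

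A mean per group was fitted over all 12 arrays with limma 3.58.1 in R 4.3.3 (6 residual and 3.28 prior degrees of freedom), with two-sided tests, Benjamini-Hochberg adjustment over all genes tested within a comparison and a threshold of 0.05. A gate is the mean of its LY6D+ and LY6D- groups. Precision is limited by the number of arrays. Both LY6D classes of a gate share mouse numbers in the labels and so come from the same animals, which pairs them. The main fit held no term for the mouse, so its LY6D tests were unpaired. After removal of group means, paired libraries correlated at 0.0220 (luminal), 0.149 (Sca1-high) and 0.407 (basal).

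The Hox genes and all lists were chosen with earlier results of these data known. Values in every library were given for the 3 Hox genes with the most positive and the 3 with the most negative difference in each gate comparison, the 2 of each sign for LY6D over the gates, and paralog group 13, which made 16 genes. Lists named their widest members. The related lists had 8 cofactors, 10 Trithorax and MLL, 18 Polycomb, 13 retinoid, 8 homeobox and 5 noncoding genes tested. Some genes are not reported here. Alternatives covered the mouse as a block, normalization, filters, probe set choice, moderation, array weights, the samples fitted and each library left out in turn.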

Additional observations from a re-analysis of the deposited data

Results flagged for a closer look

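In each gate, the 4 values of every Hox gene were searched for a library far from the other 3, by Dixon's ratio of gap to range at its 95% critical value. Of 108 combinations of gene and gate 4 stood out, and chance marks about 1 in 20. All 4 libraries were of mouse 5. Hoxd13 was 6.86 in luminal LY6D- cells, against 3.97 to 4.33 in the other luminal libraries. Hoxd9 was 2.59 in basal LY6D+ cells, against 3.31 to 3.33. Hoxd12, a posterior gene of the same cluster, was 3.72 in basal LY6D- cells, against 4.36 to 4.46. Hoxc11, another posterior gene, was 3.50 in Sca1-high LY6D+ cells, against 3.61 to 3.62, a gap small in size beside a narrow range. Luminal LY6D-, basal LY6D+ and basal LY6D- of mouse 5 are the libraries with the lowest array medians and the highest values on the first principal component. Sca1-high LY6D+ of mouse 5 is the one with the lowest correlation. The part of these library-wide differences in the 4 values was not tested.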

How the results depend on the processing

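Across the 23 or 24 alternative settings run for each comparison, 12 of which left out a library in turn, the count of called Hox genes stayed at 0 in every comparison but 1: without basal LY6D- of mouse 3, basal minus luminal gave 1, Hoxb13, so the range over left-out libraries was 0 to 1. The median Hox difference between Sca1-high and basal cells, 0.28, was 0.12 after removing basal LY6D+, basal LY6D- and luminal LY6D- of mouse 5, the 3 libraries that stood apart, and 0.11 to 0.34 over left-out libraries, lowest without basal LY6D- of mouse 5. Over left-out libraries it was -0.19 to 0.026 for basal minus luminal and 0.075 to 0.22 for Sca1-high minus luminal. Small differences changed sign. For Sca1-high minus basal, Hoxc13 (-0.013) was 0.30 with the mouse as a fixed block, 0.033 as a random block and -0.21 to 0.18 over left-out libraries, and Hoxa13 (-0.19) was 0.057 without the 3 libraries and -0.42 to 0.032 over left-out ones. Hoxc13 ran from -0.37 to 0.11 for basal and from -0.38 to 0.098 for Sca1-high against luminal cells. The LY6D difference of Hoxd8 over the gates was -0.018 to 0.40, and -0.018 without Sca1-high LY6D+ of mouse 5. The causes were not tested. With the mouse as a fixed or random block, the count of called Hox genes stayed at 0. Medians, counts without overlap and the runs without libraries that stood apart were added after seeing the data. The added run without Sca1-high LY6D+ of mouse 5 is the same as the run that left out that library in turn, so the settings count it in duplicate.

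Counts of Hox genes without overlap ranged from 2 to 12 between basal and luminal, where the 12 (33.3%, against 22.7% of all genes) came without the 3 libraries and 8 (22.2%, against 10.9%) without luminal LY6D- of mouse 5 alone. Between Sca1-high and luminal they ranged from 2 to 4, with 4 (11.1%) without Sca1-high LY6D+ of mouse 5 (8.85% of all genes) or luminal LY6D- of mouse 4 (12.4%). Between Sca1-high and basal they ranged from 1 (2.78%, against 5.55%, quantile normalization) to 8 (22.2%, against 10.6%, without Sca1-high LY6D+ of mouse 5). With 4 mice, of which mouse 5 spans the gates, and dim signals for most Hox genes, small differences could not be resolved. Hoxa11 and Hoxd4 were not analysed here.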
